A study of Mus musculus with 45 samples.

Results

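Livers of mice fed a high-fat diet (HFD) for 16 weeks and given metformin were compared with livers of chow-fed mice given metformin. The sample titles place 3 libraries in each group, so 6 of the 45 libraries of the series are compared, and 14067 of the 23227 genes in the count tables were expressed enough to be tested. The 16-week HFD metformin mice began the HFD at 8 weeks of age, and the chow metformin mice ate standard chow. Both groups were wild-type C57BL/6J mice, 24 weeks old and starved overnight, and none of their livers belongs to an insulin time point. Metformin was dissolved in the drinking water at 270 mg per kg of lean body mass per day. It was begun at 8 or 18 weeks of age, and the labels do not say which start applies to which group, so a difference in the length of metformin treatment cannot be told apart from the diet. Whole frozen liver was pulverized, and polyA RNA was sequenced as paired reads with a kit that does not keep the strand. No label ties a library to a mouse, so p values measure only the spread between libraries. In the fit of all 45 libraries that spread is drawn from every group of the series.

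Metformin is the first-line drug for type 2 diabetes. It accumulates in hepatocytes, inhibits complex I of the respiratory chain and lowers the glucose output of the liver. A long HFD raises fat storage in the liver and blunts its response to insulin, the hormone that turns on lipid synthesis and turns off the genes of glucose production. The comparison asks how the liver mRNA of mice on a long HFD differs from that of chow-fed mice when both receive the drug.

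The 6 libraries held 19.1 to 21.6 M counted reads. One of them, HFD metformin replicate 1, stood apart by gene length. Its deviation from the mean of the 6 libraries had a median of 0.55 (log2) in the bin of the shortest genes, with a median exon length of 658 bases, and of -0.60 in the bin of the longest, with a median of 9118 bases. In the other 5 libraries the medians of those bins lay between -0.16 and 0.19. Across genes, exon length had a Spearman correlation of -0.61 with this deviation in replicate 1, computed against the mean of all 45 libraries, and of -0.27 and -0.34 in HFD metformin replicates 2 and 3. It was -0.22, -0.19 and -0.13 in chow metformin replicates 1, 2 and 3. Values without HFD metformin replicate 1 are given beside the results that it moves.

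**Figure D1:**
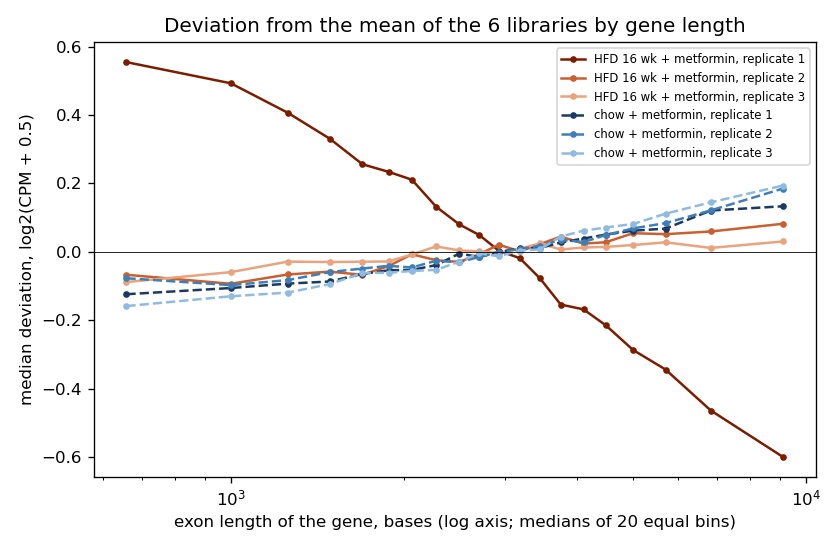
Median deviation from the mean of the 6 libraries, in log2(CPM + 0.5), of genes in 20 equal bins of exon length (log axis), with 1 line for each HFD metformin library (solid) and each chow metformin library (dashed). HFD metformin replicate 1 falls from 0.55 to -0.60 across the bins, while the 5 other libraries stay between -0.16 and 0.19 at both ends.

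Marker genes of cell types were set against the label of liver. Levels below are CPM, read counts scaled to library size with TMM factors, in the order of replicates 1, 2 and 3. The 10 hepatocyte markers summed to 154708, 146679 and 131535 CPM in HFD metformin livers, against 108235, 116351 and 113133 CPM in chow metformin livers, and none was at 0. Of the 10, 3 passed the test in the fit of all 45 libraries as higher and 1 as lower. The macrophage and Kupffer cell markers summed to 532, 585 and 599 CPM in HFD metformin livers, against 544, 324 and 389 CPM in chow metformin livers. None of the 24 markers tested passed the test, while 4 were higher and 1 lower at an unadjusted p under 0.05. DESeq2 called 1 and limma with sample weights 7 as higher. The limma weight was 0.156 for HFD metformin replicate 1 and 1.05 to 2.42 for the other libraries. Endothelial markers summed to between 235 and 328 CPM in HFD metformin livers, against 256 to 364 CPM in chow metformin livers. Of 13 tested, 1 passed as lower, and none without HFD metformin replicate 1. T, NK and B cell markers summed to 6.3 to 10.5 CPM in HFD metformin livers, against 5.76 to 7.12 CPM in chow metformin livers. Of 16 tested, 2 passed as higher, also without HFD metformin replicate 1, and limma called 2. None passed in the fit of the 6 libraries alone, in DESeq2 or without chow metformin replicate 1 or 3. Pancreatic acinar markers reached 139 CPM in chow metformin replicate 1 and skeletal muscle markers 106 CPM in chow metformin replicate 2. The part of these cells in the results was not tested. In whole liver, fewer cells of a type and less RNA per cell cannot be told apart.

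Across all genes, 2871 (20.4%) passed edgeR's quasi-likelihood F test at a false discovery rate of 0.05 in the fit of all 45 libraries. Of these, 1570 (11.2% of genes tested) were higher and 1301 (9.25%) lower in HFD metformin livers. A fit of the 6 libraries alone called 251 genes (1.78%), 134 higher and 117 lower, of which 242 were also called in the fit of all libraries. That count was 43, 69 and 61 without chow metformin replicates 1, 2 and 3, and 993, 159 and 64 without HFD metformin replicates 1, 2 and 3. Without HFD metformin replicate 1 the fit of all libraries called 1635 genes (11.6%), 1300 of them in common with the 2871 and in the same direction, and without chow metformin replicate 3 it called 1859. With per-library trends of exon length and GC content removed it called 2479 genes (17.6%). The median over all genes tested was 0.02 (log2) with all 6 libraries and -0.01 without replicate 1. The median SD within a group, in log2 CPM, was 0.30 for HFD metformin. Every other group of the series lay between 0.13 and 0.21, with chow metformin at 0.16. The spread that the fit of all libraries draws from every group may therefore be too small for HFD metformin livers. How far this raised the number of calls or narrowed the standard errors was not tested. Each count of list members below is to be read against the share of all genes called in the same fit. A gene is called below where it passed in the fit of all libraries, and fold changes are log2 values of HFD metformin over chow metformin ± standard error, with 3 libraries in each group. Some named genes are uncertain. Cyp2b13, Slc22a27, 9430037G07Rik, Cyp4a12b, Sec61b, Ifit3, Gbp6, Serpina3m, Acat2, Ces2a and Ddit3 share at least 20% of their 40-base exon words with other genes. Srebf1, Plin4, Irs2, Inppl1, Bhlhe40 and Ddit3 overlap exons of an opposite-strand gene, and Aatk, E030018B13Rik, H2-T23 and B2m lie in or over such a gene.

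Among genes past the threshold in both fits, with no overlap between the groups and a mean of at least 5 CPM, 118 were higher and 99 lower. The 12 largest rises included genes of drug metabolism and of lipid synthesis, and all 12 stayed called whichever 1 of the 6 libraries was left out. Cyp2b9 (chr7:26958428-26995679, mm9), a cytochrome P450 with female-biased expression in mouse liver, had 341, 247 and 285 CPM in HFD metformin livers, against 2.04, 3.69 and 3.40 CPM in chow metformin livers. Every HFD metformin liver was far above every chow metformin liver, and Cyp2b9 rose by 6.58 ± 0.76 (adjusted p = 5.72e-07). Its neighbour in the same family, Cyp2b13, had 13.7, 8.81 and 10.2 CPM in HFD metformin livers, against 0.149, 0.403 and 0.0493 CPM in chow metformin livers, with the same separation of the groups (5.79 ± 1.28, or 6.71 without chow metformin replicate 2). Thrsp, a regulator of fatty acid synthesis that insulin and carbohydrate induce, had 157, 26.1 and 156 CPM in HFD metformin livers, against 11.4, 11.3 and 4.88 CPM in chow metformin livers. HFD metformin replicate 2 was lower than the other two but still above all chow metformin livers, and Thrsp rose by 3.62 ± 0.56 (adjusted p = 3.47e-05).

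Car3, carbonic anhydrase 3, abundant in adipocytes and also expressed in hepatocytes, had 3973, 2883 and 3543 CPM in HFD metformin livers, against 536, 699 and 237 CPM in chow metformin livers and rose by 2.82 ± 0.55 (adjusted p = 0.000479). Car3 made up nearly all of the summed adipocyte markers, which stood at 4008, 2926 and 3602 CPM in HFD metformin livers, against 566, 720 and 256 CPM in chow metformin livers. Of 8 adipocyte markers tested, 2 were called as higher, Car3 and another at 2.74, and the 6-library fit called 1. Lgals1, the sugar-binding protein galectin-1, had 85.3, 39.2 and 49.0 CPM in HFD metformin livers, against 7.62, 9.04 and 6.85 CPM in chow metformin livers (2.88 ± 0.43). Serpina7, thyroxine-binding globulin, had 56.8, 72.2 and 66.1 CPM in HFD metformin livers, against 10.2, 4.61 and 9.56 CPM in chow metformin livers (2.99 ± 0.52). Rgs16, which shortens G protein signals, had 81.0, 201 and 344 CPM in HFD metformin livers, against 28.9, 35.1 and 25.6 CPM in chow metformin livers (2.80 ± 0.59). In Car3, Lgals1, Serpina7 and Rgs16 every HFD metformin liver was above every chow metformin liver. Further rises among the 12 were those of 9030619P08Rik (3.24 ± 0.61), Slc22a27 (2.99 ± 0.56), C730036E19Rik (2.96 ± 0.50) and Aatk (2.89 ± 0.42).

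The 12 largest falls held genes of amino acid and drug metabolism, and they too stayed called without any 1 of the 6 libraries. Asns (chr6:7625171-7643182), asparagine synthetase, had 0.983, 0.927 and 1.25 CPM in HFD metformin livers, against 18.9, 18.9 and 27.2 CPM in chow metformin livers. No HFD metformin liver came near the lowest chow metformin liver, and the log2 fold change was -4.35 ± 1.02 (adjusted p = 0.00277). Cyp3a11, the main drug-metabolizing P450 of its family in mouse liver and a target of the receptor PXR, had 1145, 888 and 781 CPM in HFD metformin livers, against 3939, 6171 and 5843 CPM in chow metformin livers. The groups were well apart, with a log2 fold change of -2.50 ± 0.47 (adjusted p = 0.000292). Agxt2l1, which degrades phosphoethanolamine, had 99.7, 55.6 and 83.1 CPM in HFD metformin livers, against 359, 428 and 421 CPM in chow metformin livers (-2.34 ± 0.35). Srgap3, which acts on small GTPases below Robo receptors, had 0.925, 1.65 and 1.55 CPM in HFD metformin livers, against 8.37, 7.83 and 9.12 CPM in chow metformin livers (-2.61 ± 0.28, adjusted p = 2.84e-07). The groups lay apart in both genes, and within each group the libraries were close to each other for Srgap3.

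Meg3, an imprinted long noncoding RNA, had 0.289, 0.721 and 1.80 CPM in HFD metformin livers, against 5.83, 8.47 and 4.63 CPM in chow metformin livers (-2.72 ± 0.43, or -3.60 without HFD metformin replicate 3). Hunk, a protein kinase, had 1.04, 1.08 and 0.501 CPM in HFD metformin livers, against 6.18, 5.88 and 6.70 CPM in chow metformin livers (-2.84 ± 0.38). Tbc1d30, an activator of Rab GTPases' hydrolysis, had 2.54, 3.14 and 2.75 CPM in HFD metformin livers, against 14.2, 14.5 and 14.6 CPM in chow metformin livers (-2.36 ± 0.38). In none of these genes did an HFD metformin liver reach a chow metformin liver. The others were Tuba8, an alpha-tubulin (-2.35 ± 0.52), B930025P03Rik (-2.36 ± 0.45), 9430037G07Rik (-2.65 ± 0.45, or -1.86 without chow metformin replicate 3), E030018B13Rik (-4.54 ± 0.61) and Cyp4a12b (-3.43 ± 0.43), a male-biased fatty acid hydroxylase.

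**Figure D2:**
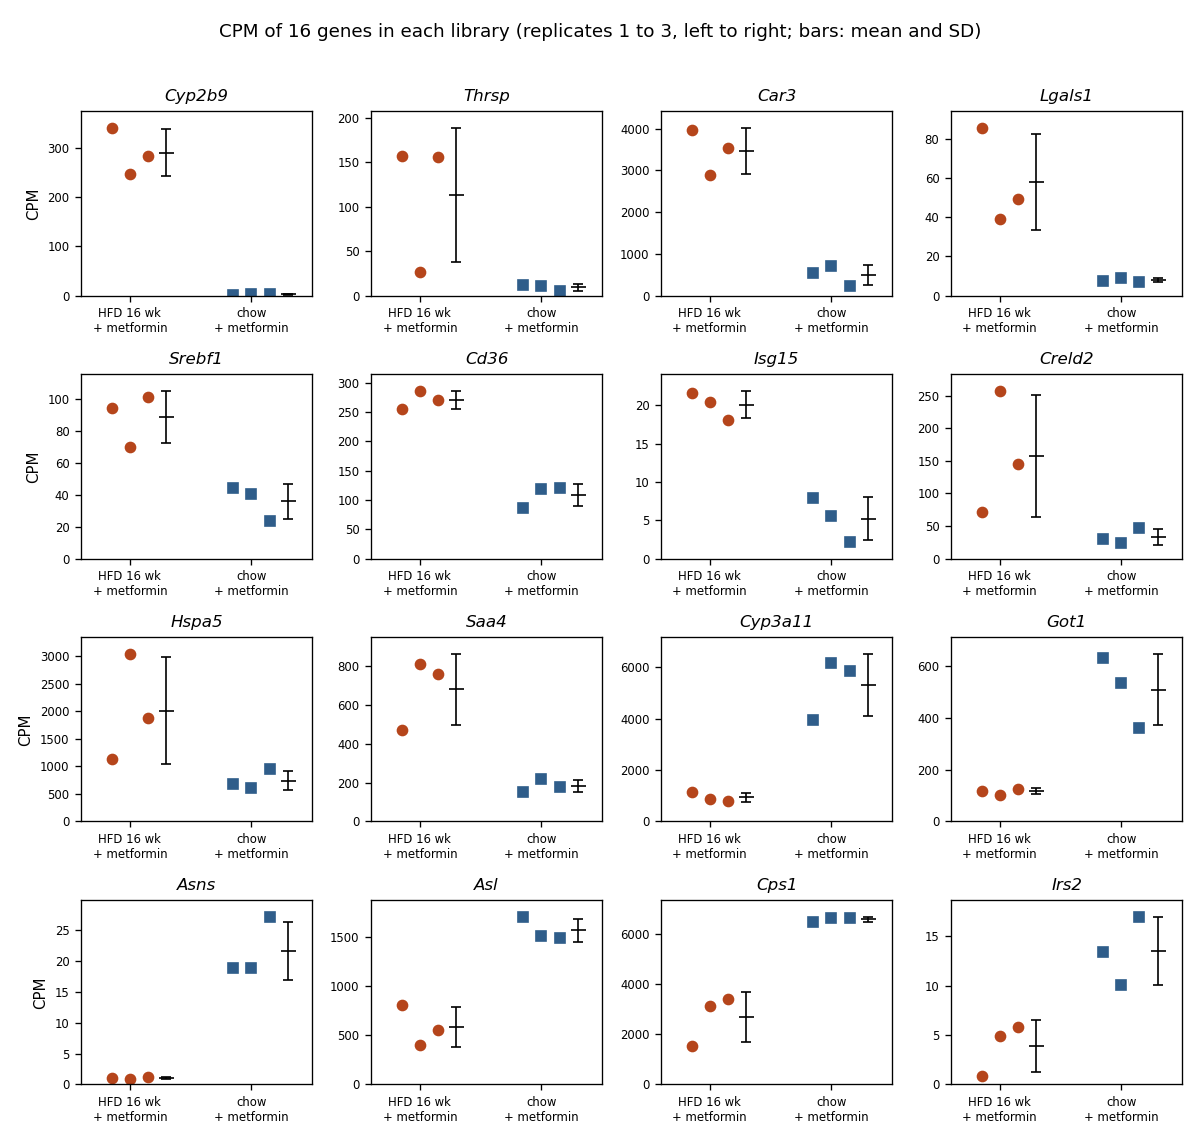
CPM of 16 genes in each of the 3 HFD metformin libraries (left, circles) and the 3 chow metformin libraries (right, squares), replicates 1 to 3 from left to right, with mean and SD as a bar. Cyp2b9, Thrsp, Car3, Lgals1, Srebf1, Cd36, Isg15 and Saa4 are higher and Cyp3a11, Got1, Asns, Asl, Cps1 and Irs2 lower in every HFD metformin library, and Creld2 and Hspa5 are highest in HFD metformin replicate 2.

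Genes of the unfolded protein response stood higher in HFD metformin livers. This response senses misfolded protein in the endoplasmic reticulum (ER) through the sensors Ire1, Perk and Atf6 and turns on chaperones, folding enzymes and the machinery that disposes of failed proteins. Of 35 genes tested, 28 were higher and none lower, against 11.2% and 9.25% of all genes, with a median of 0.58 against 0.02 over all genes. HFD metformin replicate 2 had the highest level of the 6 libraries in 31 of the 35, and in 20 all HFD metformin livers were above all chow metformin livers, an arrangement found in 14.4% of all genes tested, with the opposite one in 13.4%. The median over chow was 0.25 in HFD metformin replicate 1, 1.03 in replicate 2 and 0.59 in replicate 3. Without replicate 1 there were 30 higher with a median of 0.78, 27 of them in common with the 28, and 29 were higher with length and GC trends removed. Without replicate 2, 15 were higher. In the edgeR fit of the 6 libraries alone none was called, although 24 were higher at an unadjusted p under 0.05. That fit without replicate 1 called 26, a fit of the 9 metformin libraries 8, DESeq2 29 and limma with sample weights 25.

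The promoters of 2 members show the ER stress element, CCAAT, 9 bases of any kind and CCACG, through which ATF6 acts with NF-Y. Windows of 300 bases, from 250 before to 50 after the start of the gene, were taken from RefSeq (GRCm38.p6), and Creld2 and Hspa5 had the smallest adjusted p among members whose window holds the element. The Creld2 window is chr15:88819396-88819695 on the plus strand and the Hspa5 window chr2:34771840-34772139 on the plus strand, and capitals mark the element, which reads from the opposite strand in Creld2.
Creld2: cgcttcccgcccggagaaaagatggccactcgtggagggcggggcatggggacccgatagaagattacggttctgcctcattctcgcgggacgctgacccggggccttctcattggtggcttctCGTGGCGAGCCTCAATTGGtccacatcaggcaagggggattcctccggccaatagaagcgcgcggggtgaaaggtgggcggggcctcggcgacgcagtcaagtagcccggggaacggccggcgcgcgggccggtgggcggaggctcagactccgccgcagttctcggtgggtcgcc
Hspa5: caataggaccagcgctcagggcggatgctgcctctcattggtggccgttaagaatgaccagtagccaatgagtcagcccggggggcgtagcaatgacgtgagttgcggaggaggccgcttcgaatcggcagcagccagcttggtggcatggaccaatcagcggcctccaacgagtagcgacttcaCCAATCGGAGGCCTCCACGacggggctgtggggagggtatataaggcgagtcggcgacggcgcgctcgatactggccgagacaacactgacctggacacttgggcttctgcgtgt
The element was searched on both strands. It was in a window of 9 of the 27 members with an entry (33.3%), 8 of them among the 24 called members with an entry. Over all genes with an entry it was in a window of 37 of 27025 (0.137%). A match describes the letters of a window, and binding was not measured.

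Creld2 (chr15:88650076-88657111), an ER protein released under stress, had 70.7, 257 and 146 CPM in HFD metformin livers, against 30.5, 23.3 and 47.1 CPM in chow metformin livers. HFD metformin replicate 2 was highest and replicate 1 lowest of its group, still above every chow metformin liver, and Creld2 rose by 2.23 ± 0.39 (adjusted p = 0.000132). Hspa5 (chr2:34627610-34632049), the ER chaperone BiP and the main client-binding protein of the response, had 1129, 3041 and 1876 CPM in HFD metformin livers, against 681, 604 and 945 CPM in chow metformin livers and rose by 1.44 ± 0.30 (adjusted p = 0.000846). Its libraries followed the same order as those of Creld2. Manf, a secreted ER stress protein, had 116, 255 and 155 CPM in HFD metformin livers, against 46.6, 43.8 and 79.2 CPM in chow metformin livers and rose by 1.63 ± 0.30 (adjusted p = 0.000238). Sdf2l1, a cofactor of BiP, had 17.7, 105 and 42.0 CPM in HFD metformin livers, against 10.8, 8.24 and 15.5 CPM in chow metformin livers and rose by 2.25 ± 0.47 (adjusted p = 0.00101), or 1.37 without HFD metformin replicate 2. In the fit of the 6 libraries the adjusted p was 0.0538 for Creld2 and 0.0866 for Hspa5.

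Derl2, which helps to export failed proteins from the ER, had 124, 103 and 93.9 CPM in HFD metformin livers, against 64.2, 71.0 and 78.8 CPM in chow metformin livers. Here HFD metformin replicate 1 was highest, and the rise was smaller, at 0.58 ± 0.12 (adjusted p = 0.000781). Dnajb9, a BiP cochaperone induced through the Ire1 branch, had 54.4, 145 and 122 CPM in HFD metformin livers, against 46.9, 49.7 and 62.1 CPM in chow metformin livers, with HFD metformin replicate 1 between the chow metformin livers, and rose by 1.02 ± 0.21 (adjusted p = 0.00101). Xbp1, the transcription factor of that branch, had 174, 252 and 211 CPM in HFD metformin livers, against 142, 136 and 179 CPM in chow metformin livers and rose by 0.48 ± 0.16 (adjusted p = 0.0268), and the call was lost without HFD metformin replicate 2 (adjusted p = 0.138), without chow metformin replicate 1 (adjusted p = 0.0949) and without chow metformin replicate 2 (adjusted p = 0.113). The sensor Atf6 had 60.2, 129.7 and 112 CPM in HFD metformin livers, against 75.5, 85.4 and 109 CPM in chow metformin livers, with overlapping groups and no call (0.16 ± 0.16, adjusted p = 0.495), although it was called without HFD metformin replicate 1 (0.43, adjusted p = 0.0213).

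Genes that move proteins into the ER and on to the Golgi were also higher as a group. Of 55 tested, 28 were higher and 1 lower, with a median of 0.28. On leaving out HFD metformin replicate 1 there were 25 higher, 19 in common, and none lower. The 6-library fit called 2 as higher, 19 being higher at an unadjusted p under 0.05. Ostc, a subunit of the oligosaccharyltransferase that glycosylates new proteins, had 56.4, 62.2 and 49.4 CPM in HFD metformin livers, against 30.6, 30.3 and 33.1 CPM in chow metformin livers. No libraries of the groups overlapped, and Ostc rose by 0.84 ± 0.12 (adjusted p = 1.37e-05). Tmed3, a cargo receptor of transport vesicles, had 19.0, 26.3 and 19.3 CPM in HFD metformin livers, against 9.56, 9.51 and 10.1 CPM in chow metformin livers and rose by 1.15 ± 0.18 (adjusted p = 4.07e-05). Sec61b, of the channel through which proteins enter the ER, rose by 0.75 ± 0.12 (adjusted p = 3.7e-05), and Copz1, of the coat of Golgi vesicles, by 0.53 ± 0.09 (adjusted p = 0.000204).

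Interferon-stimulated genes, which type I and type II interferons turn on through their receptors, were higher in HFD metformin livers. Of 40 tested, 29 were higher and none lower, with a median of 0.87, and in 30 all HFD metformin livers were above all chow metformin livers, against 14.4% of all genes. The median was 0.92 without HFD metformin replicate 1, when 22 were higher, 20 in common with the 29. Leaving out chow metformin replicate 3, the lowest chow library for several members, left 15. The 6-library fit called 6, 32 being higher at an unadjusted p under 0.05, and the fit of the 9 metformin libraries called 10. The highest library was HFD metformin replicate 1 in 12 members, replicate 2 in 13 and replicate 3 in 15.

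The 2 members with the smallest adjusted p whose promoter window holds the core of the interferon-stimulated response element are shown from the same RefSeq table. The core was searched as GAAA, 2 bases of any kind and GAAA on both strands. The Isg15 window is chr4:156200769-156201068 on the minus strand and holds 3 overlapping matches, and the Ifit3 window is chr19:34583279-34583578 on the plus strand and holds 2, read from the opposite strand. Capitals mark the matches.
Isg15: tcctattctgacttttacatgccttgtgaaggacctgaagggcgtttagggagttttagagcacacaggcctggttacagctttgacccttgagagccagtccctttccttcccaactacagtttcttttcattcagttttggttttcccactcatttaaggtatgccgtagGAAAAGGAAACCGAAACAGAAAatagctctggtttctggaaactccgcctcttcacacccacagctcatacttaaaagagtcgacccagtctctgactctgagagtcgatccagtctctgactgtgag
Ifit3: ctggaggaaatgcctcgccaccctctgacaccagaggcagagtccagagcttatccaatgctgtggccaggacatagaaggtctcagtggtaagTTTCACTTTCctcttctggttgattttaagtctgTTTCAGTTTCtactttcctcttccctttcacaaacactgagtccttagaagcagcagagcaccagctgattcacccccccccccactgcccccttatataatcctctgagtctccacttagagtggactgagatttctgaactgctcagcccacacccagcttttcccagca
The core was in a window of 17 of the 28 members with an entry (60.7%), 12 of them among the 19 called members with an entry. Over all genes with an entry it was in a window of 1079 of 27025 (3.99%).

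Isg15 (chr4:155573533-155574927), a ubiquitin-like protein that is attached to others during the antiviral response, had 21.6, 20.5 and 18.1 CPM in HFD metformin livers, against 7.87, 5.59 and 2.22 CPM in chow metformin livers. The HFD metformin livers lay close together, well above the chow metformin livers, and Isg15 rose by 1.94 ± 0.29 (adjusted p = 2.42e-05). Ifit3, which acts with other IFIT proteins against foreign RNA, had 17.6, 14.0 and 20.3 CPM in HFD metformin livers, against 8.32, 7.37 and 3.99 CPM in chow metformin livers and rose by 1.4 ± 0.26 (adjusted p = 0.000329). Gbp6, a GTPase induced mainly by interferon gamma, had 22.3, 22.2 and 26.7 CPM in HFD metformin livers, against 7.67, 7.55 and 5.52 CPM in chow metformin livers and rose by 1.78 ± 0.33 (adjusted p = 0.000257). In both genes no chow metformin liver reached an HFD metformin liver. Ifi44 rose by 1.69 ± 0.30 (adjusted p = 0.000193) and Ifi35 by 0.86 ± 0.14 (adjusted p = 8.63e-05).

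Of 14 genes of antigen presentation by MHC class I, 6 were higher and none lower, and 2 were higher without HFD metformin replicate 1. The 6-library fit called none, with 6 higher at an unadjusted p under 0.05, while DESeq2 called 6 and limma with sample weights 3. Without chow metformin replicate 3 there were 3. Psmb10, an interferon-induced subunit of the immunoproteasome, had 41.0, 24.8 and 24.7 CPM in HFD metformin livers, against 16.2, 17.7 and 11.1 CPM in chow metformin livers and rose by 1.01 ± 0.21 (adjusted p = 0.000906). H2-T23, a class I molecule that NK cells read, rose by 0.65 ± 0.15 (adjusted p = 0.00262). B2m, the shared light chain of class I molecules, had 2163, 1533 and 1674 CPM in HFD metformin livers, against 1247, 1477 and 1181 CPM in chow metformin livers, with HFD metformin replicate 1 above all others. B2m rose by 0.46 ± 0.14 (adjusted p = 0.0178), and the call was lost without HFD metformin replicate 1 (adjusted p = 0.188), without chow metformin replicate 1 (adjusted p = 0.0619) and without chow metformin replicate 3 (adjusted p = 0.0918).

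**Figure D3:**
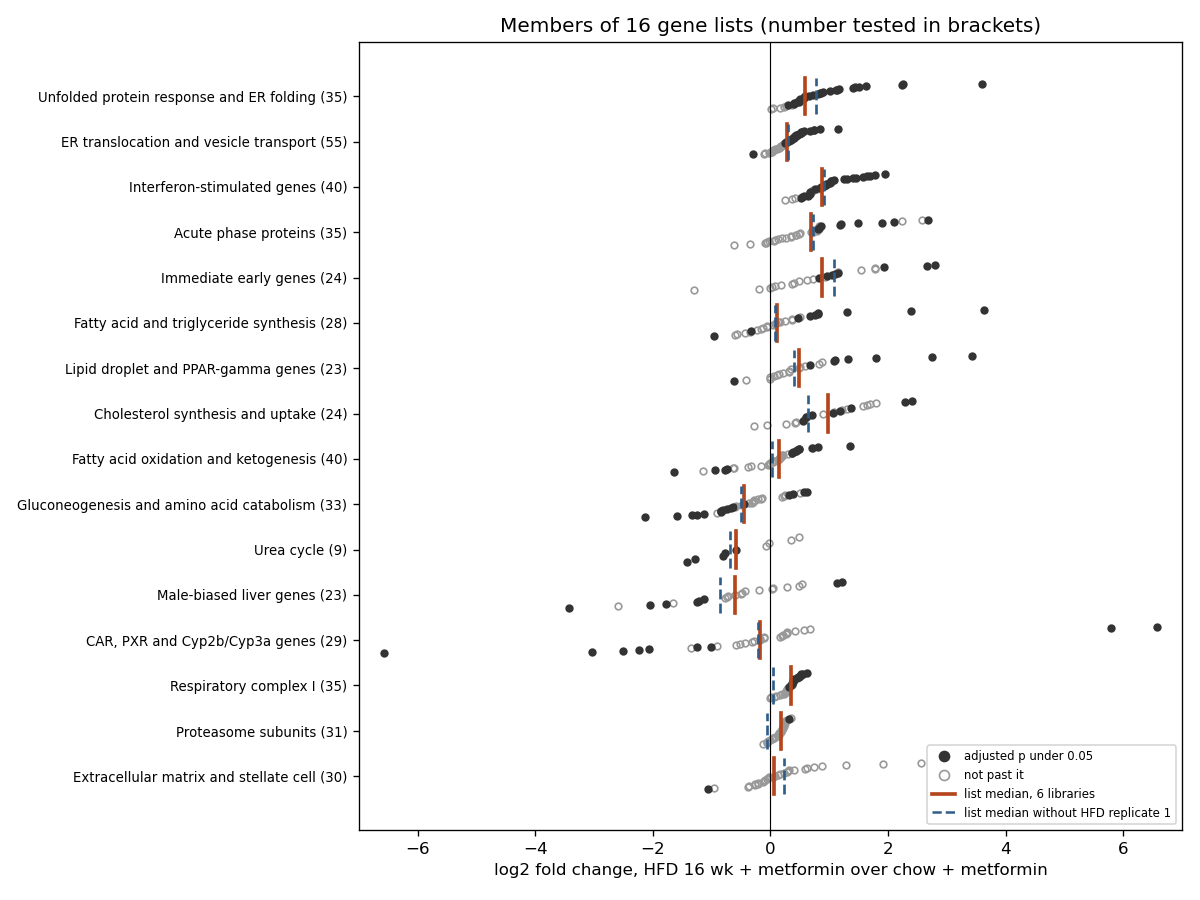
Log2 fold change of HFD metformin over chow metformin for each tested member of 16 gene lists, filled where the adjusted p was under 0.05, with the list median of all 6 libraries (solid line) and without HFD metformin replicate 1 (dashed line). The median lies at 0.58 and 0.78 for the unfolded protein response, at 0.87 and 0.92 for interferon-stimulated genes, and at 0.36 and 0.05 for respiratory complex I.

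Acute phase genes, secreted by hepatocytes during inflammation, had 9 of 35 higher and none lower, with a median of 0.69. There were 9 as well without HFD metformin replicate 1, 8 in common, and the 6-library fit called 7. HFD metformin replicate 2 was the highest library in 23 of the 35. The calls fell to 6 without chow metformin replicate 3 or without HFD metformin replicate 2, and limma with sample weights called 15 as higher. Saa4, a serum amyloid A protein present at all times in plasma, had 473, 809 and 761 CPM in HFD metformin livers, against 153, 218 and 178 CPM in chow metformin livers. All HFD metformin livers were above all chow metformin livers, and Saa4 rose by 1.90 ± 0.29 (adjusted p = 3.5e-05). Steap4, a metal reductase induced by interleukin 6, had 88.9, 329 and 208 CPM in HFD metformin livers, against 51.6, 45.6 and 47.9 CPM in chow metformin livers and rose by 2.11 ± 0.36 (adjusted p = 0.000127). Serpina3m rose by 0.80 ± 0.20 (adjusted p = 0.00444). Il1r1, the receptor of interleukin 1, had 38.3, 115 and 104 CPM in HFD metformin livers, against 24.8, 29.1 and 38.3 CPM in chow metformin livers, with HFD metformin replicate 1 just below the highest chow metformin liver, and rose by 1.48 ± 0.38 (adjusted p = 0.00575).

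Immediate early genes, which respond to growth factors and stress within minutes, had 8 of 24 higher and none lower, with a median of 0.88. There were 10 without HFD metformin replicate 1 and 2 in the 6-library fit. The count fell to 3 without HFD metformin replicate 2, to 3 without chow metformin replicate 2 and to 4 without chow metformin replicate 1. Dusp6, a phosphatase that ends ERK signalling, had 34.7, 77.7 and 70.9 CPM in HFD metformin livers, against 34.1, 28.9 and 22.5 CPM in chow metformin livers and rose by 1.1 ± 0.26 (adjusted p = 0.00262). Fos, of the AP-1 factor, had 0.867, 9.73 and 2.65 CPM in HFD metformin livers, against 0.697, 0.749 and 0.641 CPM in chow metformin livers, with most of the height in HFD metformin replicate 2. Fos rose by 2.67 ± 0.64 (adjusted p = 0.00356), and the call was lost without HFD metformin replicate 2 (1.36, adjusted p = 0.117). Ier5 rose by 1.05 ± 0.30 (adjusted p = 0.0118), and the call was lost without HFD metformin replicate 2 (adjusted p = 0.0528) and without chow metformin replicate 2 (adjusted p = 0.058). Egr1 had 8.73, 202 and 65.4 CPM in HFD metformin livers, against 18.2, 18.9 and 43.7 CPM in chow metformin livers, with HFD metformin replicate 1 below all chow metformin livers, and did not pass (1.78 ± 0.72, adjusted p = 0.0741). It stood at 2.31 (adjusted p = 0.0225) without that library and at 0.46 (adjusted p = 0.681) without HFD metformin replicate 2.

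Genes of fat synthesis moved in part. Among 28 members of the fatty acid and triglyceride synthesis list 8 were higher and 2 lower, with a median of 0.11. There were 5 higher and 1 lower without HFD metformin replicate 1, and the 6-library fit called 3 and 1. Besides Thrsp, the highest ranked were Dgat2, which makes triglyceride, with 567, 545 and 671 CPM in HFD metformin livers, against 319, 387 and 311 CPM in chow metformin livers, and Nr1h3, the oxysterol receptor LXR alpha, with 176, 135 and 145 CPM in HFD metformin livers, against 109.8, 112 and 109 CPM in chow metformin livers. In both genes every HFD metformin liver was above every chow metformin liver. Dgat2 rose by 0.81 ± 0.13 (adjusted p = 3.5e-05) and Nr1h3 by 0.46 ± 0.09 (adjusted p = 0.000326). Mogat1, which makes diacylglycerol, had 16.5, 4.58 and 5.81 CPM in HFD metformin livers, against 1.15, 2.02 and 1.97 CPM in chow metformin livers. The level in HFD metformin replicate 1 was well above the other two. Mogat1 rose by 2.39 ± 0.46 (adjusted p = 0.000452), and without HFD metformin replicate 1 by 1.6 (adjusted p = 0.0173). Srebf1, the transcription factor SREBP-1 that insulin raises, had 94.7, 70.1 and 101 CPM in HFD metformin livers, against 44.2, 40.4 and 23.6 CPM in chow metformin livers and rose by 1.30 ± 0.29 (adjusted p = 0.00173). Fasn, fatty acid synthase, had 160.1, 141 and 154 CPM in HFD metformin livers, against 104, 100.4 and 64.9 CPM in chow metformin livers and rose by 0.76 ± 0.26 (adjusted p = 0.0366), and the call was lost without HFD metformin replicate 1 (adjusted p = 0.108), without HFD metformin replicate 3 (adjusted p = 0.0609), without chow metformin replicate 2 (adjusted p = 0.0514) and without chow metformin replicate 3 (adjusted p = 0.19). Scd1, which desaturates fatty acids, had 1727, 768 and 1319.8 CPM in HFD metformin livers, against 1284, 1640.3 and 1930.2 CPM in chow metformin livers, with overlapping groups and no call (-0.35 ± 0.61, adjusted p = 0.733).

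Of 23 genes of lipid droplets and of the PPAR-gamma program, 7 were higher and 1 lower, with a median of 0.48. There were 4 higher and 1 lower without HFD metformin replicate 1, and 2 higher in the 6-library fit. Cd36, the fatty acid transporter, had 255, 286 and 271 CPM in HFD metformin livers, against 86.4, 118 and 119.6 CPM in chow metformin livers. The HFD metformin livers lay close together above all chow metformin livers, and Cd36 rose by 1.32 ± 0.30 (adjusted p = 0.00229). Vldlr, which takes up triglyceride-rich lipoproteins, had 8.44, 11.8 and 13.2 CPM in HFD metformin livers, against 3.24, 3.28 and 3.06 CPM in chow metformin livers and rose by 1.80 ± 0.37 (adjusted p = 0.000906). Plin4, which coats lipid droplets, rose by 1.08 ± 0.27 (adjusted p = 0.00484). The lower member was Pnpla2, the triglyceride lipase ATGL, with 89.4, 81.4 and 72.5 CPM in HFD metformin livers, against 112, 124 and 137 CPM in chow metformin livers. Its groups did not overlap either (-0.62 ± 0.16, adjusted p = 0.00569).

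Genes of cholesterol synthesis and uptake had the highest median of the metabolic lists, 0.98, and in 21 of 24 all HFD metformin livers were above all chow metformin livers, against 14.4% of all genes. The calls depended on single libraries. Of the 24, 8 were higher and none lower, none was called without HFD metformin replicate 1 (median 0.64, 7 higher at an unadjusted p under 0.05), and 1 without chow metformin replicate 3. Without chow metformin replicate 1 there were 4 and without replicate 2 there were 5. HFD metformin replicate 1 was the highest library in 19 of 24, and the median over chow was 1.46 in replicate 1, 0.60 in replicate 2 and 0.68 in replicate 3. The 6-library fit called 5, or 12 without replicate 1, DESeq2 called 9, and limma with sample weights 16. Hmgcs1 is listed at 0 in all 6 libraries and was not tested.

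Mvd, which makes isopentenyl diphosphate in the mevalonate pathway, had 30.3, 14.4 and 13.4 CPM in HFD metformin livers, against 3.69, 4.49 and 2.81 CPM in chow metformin livers. The groups lay apart with HFD metformin replicate 1 highest. Mvd rose by 2.40 ± 0.68 (adjusted p = 0.0115), and the call was lost without HFD metformin replicate 1 (adjusted p = 0.0803) and without chow metformin replicate 3 (adjusted p = 0.0563). Sc5d, a late enzyme that desaturates the sterol ring, had 364, 307 and 307 CPM in HFD metformin livers, against 193, 223 and 181 CPM in chow metformin livers and rose by 0.71 ± 0.20 (adjusted p = 0.00959), and the call was lost without HFD metformin replicate 1 (adjusted p = 0.056) and without chow metformin replicate 3 (adjusted p = 0.0508). Ebp, the sterol isomerase before it, had 271, 175 and 180.2 CPM in HFD metformin livers, against 144, 143 and 127 CPM in chow metformin livers and rose by 0.60 ± 0.15 (adjusted p = 0.00558), and the call was lost without HFD metformin replicate 1 (adjusted p = 0.116). Acat2, a cytosolic thiolase at the start of the pathway, rose by 0.55 ± 0.16 (adjusted p = 0.0118), and the call was lost without HFD metformin replicate 1 (adjusted p = 0.152) and without chow metformin replicate 3 (adjusted p = 0.0889).

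Genes of fatty acid oxidation and ketone synthesis did not move one way. Of 40, 11 were higher and 4 lower, with a median of 0.14. These counts were 4 higher and 4 lower without HFD metformin replicate 1, with 3 and 4 in common, and the 6-library fit called 1 and 1. Without chow metformin replicate 1 there were 7 higher and 5 lower, and without chow metformin replicate 3, the highest library for Ehhadh, 9 and 1. Hadh, a mitochondrial enzyme of beta oxidation, had 889, 585 and 755 CPM in HFD metformin livers, against 398, 452 and 427 CPM in chow metformin livers and rose by 0.80 ± 0.14 (adjusted p = 0.000105). Vnn1, a pantetheinase under PPAR alpha, had 273, 308 and 313 CPM in HFD metformin livers, against 114, 91.0 and 145 CPM in chow metformin livers and rose by 1.35 ± 0.24 (adjusted p = 0.000207). Bdh1, which makes the ketone hydroxybutyrate, rose by 0.71 ± 0.14 (adjusted p = 0.00077). The groups did not overlap in any of these 3. Ehhadh, of peroxisomal oxidation, had 1178, 1268 and 1048 CPM in HFD metformin livers, against 2067, 2454 and 6402 CPM in chow metformin livers, with chow metformin replicate 3 far above the others. Its log2 fold change was -1.64 ± 0.35 (adjusted p = 0.00133), and the call was lost without chow metformin replicate 3 (-0.96, adjusted p = 0.0519). Cpt1a, which admits fatty acids to mitochondria, had 575, 779 and 950.2 CPM in HFD metformin livers, against 1003, 1038 and 959.8 CPM in chow metformin livers and was not called (-0.38 ± 0.16, adjusted p = 0.0793), except without HFD metformin replicate 3 (-0.56, adjusted p = 0.0151).

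Genes of gluconeogenesis and amino acid breakdown were lower on balance. Of 33, 13 were lower and 4 higher, with a median of -0.45, and in 18 every HFD metformin liver was below every chow metformin liver, against 13.4% of all genes. Leaving out HFD metformin replicate 1 gave 13 lower, 11 in common, and 1 higher, without chow metformin replicate 3 there were 11 lower and 1 higher, and with length and GC trends removed 19 and 2. The 6-library fit called 6 as lower. Cth, which makes cysteine from cystathionine, had 562, 355 and 509 CPM in HFD metformin livers, against 1499.6, 1627 and 1172 CPM in chow metformin livers. The groups did not overlap (-1.59 ± 0.21, adjusted p = 3.5e-06). Mat1a, which makes the methyl donor S-adenosylmethionine, had 5769, 5366 and 6589 CPM in HFD metformin livers, against 10021, 10178 and 10664 CPM in chow metformin livers (-0.80 ± 0.14, adjusted p = 0.000179). Got1, the cytosolic aspartate aminotransferase, had 119, 104 and 126 CPM in HFD metformin livers, against 633, 536 and 362 CPM in chow metformin livers (-2.13 ± 0.40, adjusted p = 0.00028). Aass, which begins lysine breakdown, had 343, 356 and 449 CPM in HFD metformin livers, against 812, 637 and 619 CPM in chow metformin livers (-0.85 ± 0.17, adjusted p = 0.000498). In all 4 genes the HFD metformin livers were below every chow metformin liver.

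Calls among the enzymes of glucose output rested in part on single libraries. G6pc, glucose-6-phosphatase, had 229.8, 161 and 244 CPM in HFD metformin livers, against 425, 421 and 659.99 CPM in chow metformin livers. The groups did not overlap (-1.25 ± 0.37, adjusted p = 0.014), and the call was lost without HFD metformin replicate 2 (adjusted p = 0.0511) and without chow metformin replicate 3 (adjusted p = 0.0869). Pck1, the cytosolic PEP carboxykinase, had 2047, 3208 and 3522 CPM in HFD metformin livers, against 4345, 5240.2 and 5060.1 CPM in chow metformin livers. Its lowest library was HFD metformin replicate 1 (-0.74 ± 0.22, adjusted p = 0.017), and the call was lost without HFD metformin replicate 1 (adjusted p = 0.147), without chow metformin replicate 2 (adjusted p = 0.0551) and without chow metformin replicate 3 (adjusted p = 0.0521). Ppargc1a, a coactivator of fasting genes, had 7.46, 10.4 and 11.6 CPM in HFD metformin livers, against 27.6, 23 and 13.8 CPM in chow metformin livers (-1.13 ± 0.24, adjusted p = 0.00109). Of 9 genes of the urea cycle, 5 were lower and none higher, with the same 5 lower without HFD metformin replicate 1 and 2 lower in the 6-library fit. Cps1, which fixes ammonia in mitochondria, had 1548, 3134 and 3424 CPM in HFD metformin livers, against 6494, 6646 and 6672 CPM in chow metformin livers (-1.29 ± 0.21, adjusted p = 6.43e-05). HFD metformin replicate 1 had the lowest level of Cps1, and no HFD metformin liver approached the chow metformin livers. Asl, which releases arginine, had 803, 399 and 557 CPM in HFD metformin livers, against 1699, 1509 and 1488 CPM in chow metformin livers (-1.42 ± 0.22, adjusted p = 3.32e-05). Arg1, which releases urea, had 1217, 1049 and 1033 CPM in HFD metformin livers, against 1840.2, 2037 and 1869.5 CPM in chow metformin livers (-0.80 ± 0.12, adjusted p = 2.62e-05). Slc25a15, the ornithine carrier of mitochondria, had the value -0.59 ± 0.16 (adjusted p = 0.00956).

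Of 28 genes of insulin signalling and of FoxO factors, 4 were higher and 6 lower, against 11.2% and 9.25% of all genes. The median was -0.20. Without HFD metformin replicate 1 there were 5 higher and 1 lower, and without chow metformin replicate 3 there were 4 and 3. Irs2, the insulin receptor substrate that FoxO1 raises in fasting, had 0.867, 4.89 and 5.81 CPM in HFD metformin livers, against 13.4, 10.1 and 17.0 CPM in chow metformin livers. HFD metformin replicate 1 was far below the other libraries (-1.79 ± 0.49, adjusted p = 0.0091), and the call was lost without HFD metformin replicate 1 (adjusted p = 0.0795). Igfbp1 (chr11:7097790-7102549), a secreted binding protein of IGFs that insulin represses, had 40.5, 106 and 78.7 CPM in HFD metformin livers, against 148, 133 and 410.4 CPM in chow metformin livers, with chow metformin replicate 3 well above the others. Its value was -1.62 ± 0.52 (adjusted p = 0.0243), and the call was lost without HFD metformin replicate 1 (adjusted p = 0.145) and without chow metformin replicate 3 (-0.91, adjusted p = 0.266). Pik3r1, the regulatory subunit of PI3 kinase, had 122, 141 and 162 CPM in HFD metformin livers, against 78.6, 79.1 and 63.7 CPM in chow metformin livers and rose by 0.94 ± 0.18 (adjusted p = 0.000361). Trib1, a pseudokinase that lowers hepatic lipogenesis, rose by 1.04 ± 0.21 (adjusted p = 0.000613). Ppp1r3b, which brings a phosphatase to glycogen, had 385, 413 and 439 CPM in HFD metformin livers, against 227, 246 and 224 CPM in chow metformin livers and rose by 0.83 ± 0.22 (adjusted p = 0.00725). Inppl1, the lipid phosphatase SHIP2, had the value -0.53 ± 0.14 (adjusted p = 0.00558), with the call lost without HFD metformin replicate 1 (adjusted p = 0.0506).

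Glycolysis and glucose uptake had 5 of 22 higher and 1 lower, and 3 and 1 without HFD metformin replicate 1. Khk, fructokinase, had 753, 322 and 420.3 CPM in HFD metformin livers, against 274, 255 and 225 CPM in chow metformin livers. The highest library was HFD metformin replicate 1, and Khk rose by 0.99 ± 0.19 (adjusted p = 0.000401). Of 19 clock genes 4 were higher and 2 lower, against 11.2% and 9.25% of all genes. There was 1 higher and none lower without chow metformin replicate 3 or without HFD metformin replicate 3. There were 2 and 1 without chow metformin replicate 1, 4 and 1 without HFD metformin replicate 1, and 7 and 4 without HFD metformin replicate 2. Bhlhe40, a repressor of the clock loop, had 74.4, 94.2 and 116 CPM in HFD metformin livers, against 30.2, 42.5 and 35.6 CPM in chow metformin livers and rose by 1.4 ± 0.24 (adjusted p = 0.000137). Arntl, the clock activator BMAL1, had 4.91, 7.0 and 2.25 CPM in HFD metformin livers, against 9.56, 8.70 and 17.2 CPM in chow metformin livers (-1.33 ± 0.36, adjusted p = 0.00861), and the call was lost without HFD metformin replicate 3 (adjusted p = 0.0559) and without chow metformin replicate 3 (adjusted p = 0.0944). Per2 rose by 0.84 ± 0.29 (adjusted p = 0.0347), with overlapping groups, and the call was lost without HFD metformin replicate 3 (adjusted p = 0.411), without chow metformin replicate 2 (adjusted p = 0.0615) and without chow metformin replicate 3 (adjusted p = 0.173).

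Drug-metabolizing and sex-biased genes held both rises and falls. Of 29 genes in the list of the receptors CAR and PXR, 2 were higher and 7 lower, with a median of -0.18. The list also holds Cyp1a1, a target of another receptor, and Cyp1a1 is counted among the 7 although its value rests on chow metformin replicate 2. On leaving out HFD metformin replicate 1 the counts were the same. Without chow metformin replicate 2 there were 3 higher and 4 lower. Besides Cyp2b9 and Cyp3a11, Ces2a, a carboxylesterase, had 181, 127 and 164 CPM in HFD metformin livers, against 368, 379.99 and 377 CPM in chow metformin livers (-1.25 ± 0.20, adjusted p = 4.25e-05). Slco1a4, a transporter of organic anions and bile acids, had 79.5, 45.6 and 61.4 CPM in HFD metformin livers, against 249, 282 and 204 CPM in chow metformin livers (-1.98 ± 0.43, adjusted p = 0.00152). In both genes the HFD metformin livers were all below the chow metformin livers. Cyp1a1, a target of the aryl hydrocarbon receptor, had 1.33, 1.18 and 0.951 CPM in HFD metformin livers, against 1.34, 328 and 0.838 CPM in chow metformin livers, so a single chow library was high. Its value of -6.57 ± 1.07 (adjusted p = 6.3e-05) was lost without chow metformin replicate 2 (0.08, adjusted p = 0.91). Cyp1a2, under the same receptor, had 347, 280.2 and 396 CPM in HFD metformin livers, against 274, 4291 and 257 CPM in chow metformin livers, again with chow metformin replicate 2 far above the others, and its value of -2.24 ± 0.55 (adjusted p = 0.00412) was lost without chow metformin replicate 2 (0.36, adjusted p = 0.449).

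Of 23 male-biased liver genes, 6 were lower and 2 higher, with a median of -0.61, and the 6-library fit called 6 as lower. The counts were 5 and 1 without HFD metformin replicate 1. Ugt2b1, which conjugates steroids and drugs, had 205, 239 and 285 CPM in HFD metformin livers, against 453, 679.9 and 596 CPM in chow metformin livers (-1.25 ± 0.21, adjusted p = 9.45e-05). C6, a complement protein, had 91.0, 115 and 109.7 CPM in HFD metformin livers, against 223, 228 and 282 CPM in chow metformin livers (-1.21 ± 0.26, adjusted p = 0.00137). Cyp2u1 went the other way, with 18.9, 12.3 and 12.9 CPM in HFD metformin livers, against 8.32, 5.99 and 5.72 CPM in chow metformin livers, and rose by 1.14 ± 0.18 (adjusted p = 3.83e-05). Of 22 female-biased genes, 4 were higher and 3 lower, against 11.2% and 9.25% of all genes. Hao2, a hydroxy acid oxidase of peroxisomes, had 4.45, 2.68 and 3.05 CPM in HFD metformin livers, against 0.0996, 0.115 and 0 CPM in chow metformin livers. It was near or at 0 in every chow metformin liver and rose by 5.51 ± 0.90 (adjusted p = 6.82e-05), or 4.92 without chow metformin replicate 3, a size that depends on the few chow reads. Of 19 genes of growth hormone and IGF signalling 2 were higher and 4 lower, against 11.2% and 9.25% of all genes. Without HFD metformin replicate 1 there were 2 and 0, with 6 lower at an unadjusted p under 0.05. The count was 1 and 2 without chow metformin replicate 1, 2 and 2 without replicate 2 and 1 and 0 without replicate 3, and 2 and 1 without HFD metformin replicate 2 and 1 and 3 without replicate 3. Stat5a, a transcription factor that growth hormone activates, had 18.7, 17.7 and 19.4 CPM in HFD metformin livers, against 10.8, 10.4 and 11.4 CPM in chow metformin livers. Its groups did not overlap, Stat5a rose by 0.78 ± 0.16 (adjusted p = 0.00104), and it stayed called without any 1 of the 6 libraries. Socs2, a feedback inhibitor that growth hormone induces, had 3.18, 3.45 and 2.2 CPM in HFD metformin livers, against 10.7, 10.4 and 22.3 CPM in chow metformin livers (-2.30 ± 0.80, adjusted p = 0.0379), and the call was lost without HFD metformin replicate 1 (adjusted p = 0.107), without HFD metformin replicate 2 (adjusted p = 0.0574), without HFD metformin replicate 3 (adjusted p = 0.0959) and without chow metformin replicate 3 (adjusted p = 0.155). Bcl6, a repressor of female-biased genes, had 15.2, 13.9 and 19.5 CPM in HFD metformin livers, against 42.1, 44.9 and 52.3 CPM in chow metformin livers (-1.52 ± 0.53, adjusted p = 0.0375), and the call was lost without HFD metformin replicate 1 (adjusted p = 0.12), without HFD metformin replicate 2 (adjusted p = 0.0844), without chow metformin replicate 1 (adjusted p = 0.0578), without chow metformin replicate 2 (adjusted p = 0.0647) and without chow metformin replicate 3 (adjusted p = 0.0971).

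Of 22 genes linked to metformin, 2 were higher and 4 lower, against 11.2% and 9.25% of all genes, with a median of -0.04. There were 3 higher and 3 lower without HFD metformin replicate 1, and the 6-library fit called 1 and 1. Prkaa2, a catalytic subunit of the energy sensor AMPK, had 41.2, 61.5 and 64.7 CPM in HFD metformin livers, against 63.9, 95.1 and 91.8 CPM in chow metformin livers (-0.58 ± 0.13, adjusted p = 0.0021), with overlapping groups. Crtc2, the coactivator of CREB on gluconeogenic genes that AMPK restrains, had 27.2, 30.1 and 26.9 CPM in HFD metformin livers, against 35.8, 38.5 and 34.1 CPM in chow metformin livers (-0.36 ± 0.09, adjusted p = 0.00605). Gdf15, a hormone of cell stress that metformin raises, had 13.1, 24.4 and 13.9 CPM in HFD metformin livers, against 3.04, 3.51 and 6.95 CPM in chow metformin livers. Gdf15 rose by 1.92 ± 0.56 (adjusted p = 0.0132), and the call was lost without chow metformin replicate 1 (adjusted p = 0.0647) and without chow metformin replicate 2 (adjusted p = 0.055). Fgf21, a fasting hormone of the liver, had 16.2, 24.2 and 11.2 CPM in HFD metformin livers, against 5.38, 10.1 and 15.6 CPM in chow metformin livers, with overlapping groups and no call (0.73 ± 0.58, adjusted p = 0.394). Rgs4 had 1.79, 1.70 and 2.45 CPM in HFD metformin livers, against 1.20, 1.61 and 1.82 CPM in chow metformin livers and was not called (0.36 ± 0.43, adjusted p = 0.593).

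The integrated stress response couples amino acid shortage and ER stress to the factor ATF4. Of 25 of its genes, 4 were higher and 1 lower, against 11.2% and 9.25% of all genes, with a median of 0.32. Members moved in opposite directions. Chac1, which degrades glutathione, had 1.39, 7.47 and 4.06 CPM in HFD metformin livers, against 0.598, 0.518 and 0.887 CPM in chow metformin livers and rose by 2.68 ± 0.61 (adjusted p = 0.00226), or 2.02 without HFD metformin replicate 2. Ddit3, the factor CHOP, had 16.2, 22.0 and 15.8 CPM in HFD metformin livers, against 6.97, 4.15 and 6.65 CPM in chow metformin livers and rose by 1.6 ± 0.27 (adjusted p = 7.85e-05). Asns, another ATF4 target, was the member that fell. Atf4 itself had 104, 91.2 and 74.3 CPM in HFD metformin livers, against 68.8, 72.2 and 74.5 CPM in chow metformin livers and was not called (0.32 ± 0.14, adjusted p = 0.0948), except without HFD metformin replicate 3 (0.45, adjusted p = 0.0282).

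Of genes of cell growth, 1 of 29 in the cell cycle list and 3 of 18 in the p53 and growth arrest list were higher. None in either list was lower, against 11.2% higher and 9.25% lower of all genes. Without HFD metformin replicate 1 the higher genes numbered 1 and 2. Ccnd1, cyclin D1, which drives entry into the cell cycle, had 39.9, 77.9 and 47.6 CPM in HFD metformin livers, against 9.17, 7.66 and 14.7 CPM in chow metformin livers. The groups did not overlap, Ccnd1 rose by 2.39 ± 0.39 (adjusted p = 5.87e-05), and it stayed called without any 1 of the 6 libraries. It was the only call among 29 cell cycle genes. Ccng1, a p53 target, had 46.6, 48.2 and 48.9 CPM in HFD metformin livers, against 29.0, 26.3 and 26.7 CPM in chow metformin livers and rose by 0.81 ± 0.13 (adjusted p = 3.7e-05). Sort1, a receptor that sorts apolipoprotein B, had 7.75, 7.78 and 7.66 CPM in HFD metformin livers, against 15.9, 17.3 and 17.3 CPM in chow metformin livers (-1.12 ± 0.23, adjusted p = 0.000781). It was the lower member among 21 apolipoprotein genes, of which 6 were higher, or 2 without HFD metformin replicate 1. Mbl2, a lectin of the complement system, had 508, 327 and 322 CPM in HFD metformin livers, against 206, 211 and 208 CPM in chow metformin livers and rose by 0.89 ± 0.16 (adjusted p = 0.000171). Pros1, the anticoagulant protein S, had 61.5, 58.3 and 58.8 CPM in HFD metformin livers, against 97.3, 107 and 123 CPM in chow metformin livers (-0.87 ± 0.15, adjusted p = 0.000136). They stood among 7 higher and 3 lower of 32 complement and coagulation genes, against 11.2% and 9.25% of all genes. The counts were 3 and 2 without HFD metformin replicate 1, 3 and 2 without chow metformin replicate 1 and 2 and 2 without chow metformin replicate 3.

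Lists of respiratory chain, ribosomal and proteasome proteins moved with HFD metformin replicate 1. Of 35 genes of respiratory complex I, 15 were higher and none lower, with a median of 0.36. HFD metformin replicate 1 was the highest of the 6 libraries in all 35, with a median over chow of 0.83, against 0.00 and 0.02 in replicates 2 and 3. Without it none was higher and 1 lower, with a median of 0.05, and 3 were higher and 1 lower at an unadjusted p under 0.05. Without HFD metformin replicate 2 or 3 the list had 28 higher, and without chow metformin replicate 1 or 3 it had 9 and 7. Ndufb3 had 103, 59.4 and 67.7 CPM in HFD metformin livers, against 48.5, 55.2 and 44.9 CPM in chow metformin livers and rose by 0.63 ± 0.15 (adjusted p = 0.00356), and the call was lost without HFD metformin replicate 1 (adjusted p = 0.0992). Replicate 1 was also highest in all 40 genes of complexes II to V, with 8 higher and none lower, or none and 1 without it. It was highest in all 76 mitochondrial ribosomal protein genes, with 38 higher and none lower, or 5 and 1 without it. Of 31 proteasome genes replicate 1 was highest in 28, with 1 higher, and none in either direction without it, where 3 were lower at an unadjusted p under 0.05. Without HFD metformin replicate 2 the higher genes numbered 26 in complexes II to V, 65 among mitochondrial ribosomal proteins and 10 in the proteasome, and without chow metformin replicate 3 they numbered 3, 22 and 0. Of 81 cytosolic ribosomal protein genes 3 were higher and 1 lower, while 14 were lower and none higher without replicate 1 and 38 lower with trends removed. With trends removed and all 6 libraries kept, 19 mitochondrial ribosomal protein genes were higher and none lower. With replicate 1 also left out these were 5 and 1. Trend removal with all 6 libraries gave 3 higher and 2 lower in complex I, 1 and 0 in complexes II to V, and none in the proteasome.

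**Figure D4:**
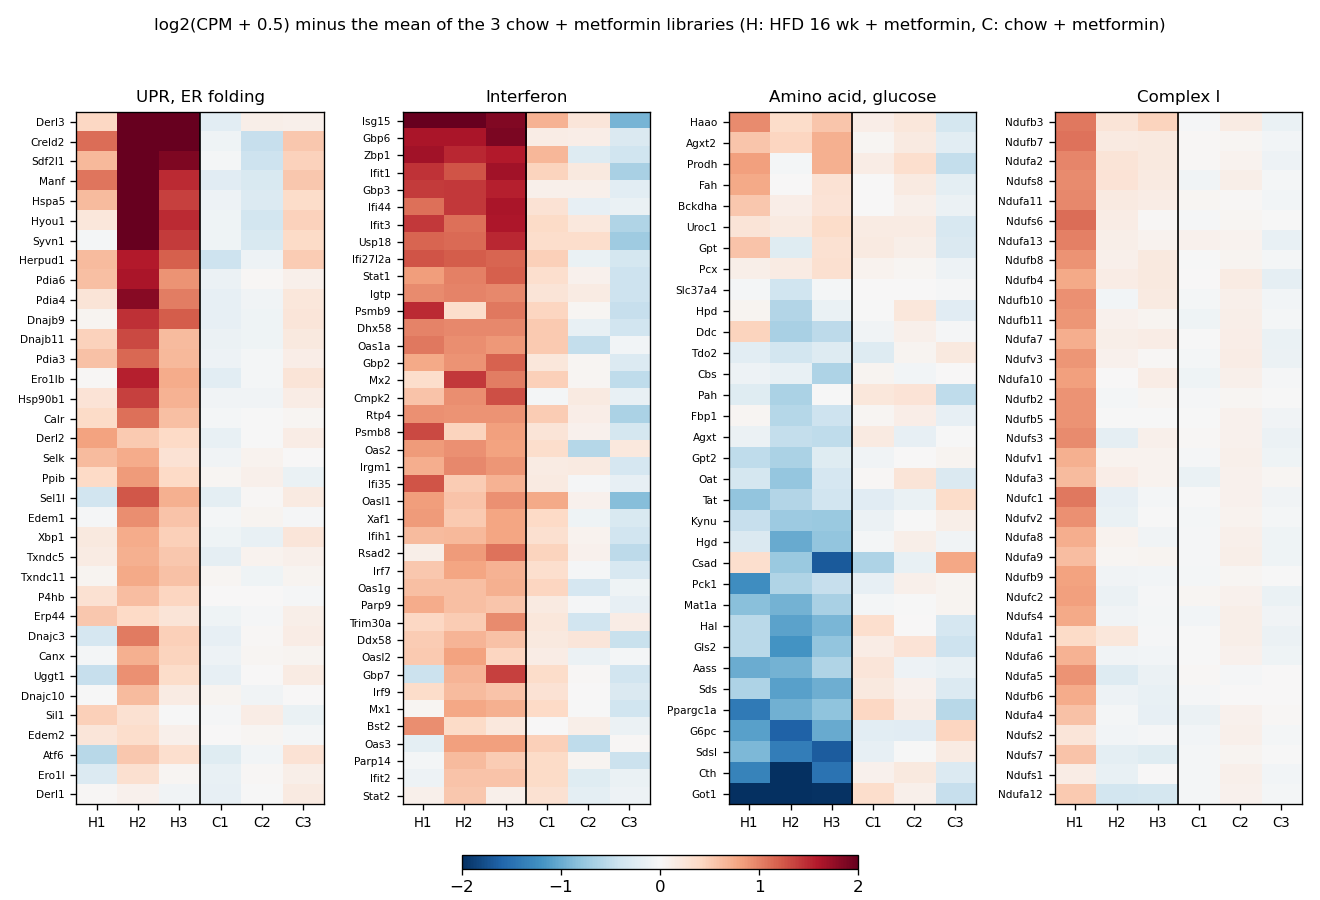
Log2(CPM + 0.5) of every tested member of 4 gene lists in the 3 HFD metformin libraries (H1 to H3) and the 3 chow metformin libraries (C1 to C3), minus the mean of the chow metformin libraries, on a scale from -2 to 2. Unfolded protein response genes are highest in H2 for 31 of 35, complex I genes are highest in H1 for all 35, and interferon-stimulated genes have their highest level in H1 for 12, H2 for 13 and H3 for 15 of 40.

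The same diet contrast exists in the series without metformin or insulin, between 3 basal 16-week HFD and 3 basal chow libraries. These share no library with the metformin groups. GC content had a Spearman correlation with the deviation from the mean of all 45 libraries of 0.29, 0.32 and 0.17 in basal HFD libraries. In basal chow libraries it was -0.08, -0.30 and -0.29. Pancreatic acinar markers summed to 23.5, 243 and 11.1 CPM in basal HFD libraries, against 2525, 1113 and 417 CPM in basal chow libraries. Basal chow replicate 1 held 45.7 M counted reads. The part of these in the basal calls was not tested. In this basal contrast 4539 genes (32.3%) were called, 16% of genes tested as higher and 16.3% as lower. Of the genes called under metformin 1571 were also called basally, which is 54.7% of the metformin calls and 34.6% of the basal calls. Of these 1542 had the same direction and 29 the opposite one. Of the 251 calls of the 6-library fit under metformin, 222 (88.4%) were also called basally in the same direction. A call in one contrast alone does not show a difference between them, so the difference itself was tested.

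The diet effect under metformin differed from the basal diet effect for 698 genes (4.96%) in the fit of all libraries, for 454 upward (3.23%) and for 244 downward (1.73%). Of the 698, 491 were called only basally, 123 only under metformin, 61 in both and 23 in neither. A fit of the 12 libraries alone called none with edgeR, where the smallest adjusted p was 0.0982 and 2079 genes had an unadjusted p under 0.05, while DESeq2 on all libraries called 1126. With length and GC trends removed 276 were called, and without HFD metformin replicate 1 there were 248, of which 183 were among the 698. Leaving out 1 library changed the count to 92 without basal chow replicate 2, 96 without basal HFD replicate 2 and 109, 155 and 764 without chow metformin replicates 1, 2 and 3. It was 1392 and 1418 without HFD metformin replicates 2 and 3, 251 without basal chow replicate 3, 381 without basal HFD replicate 3, 535 without basal chow replicate 1 and 933 without basal HFD replicate 1.

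**Figure D5:**
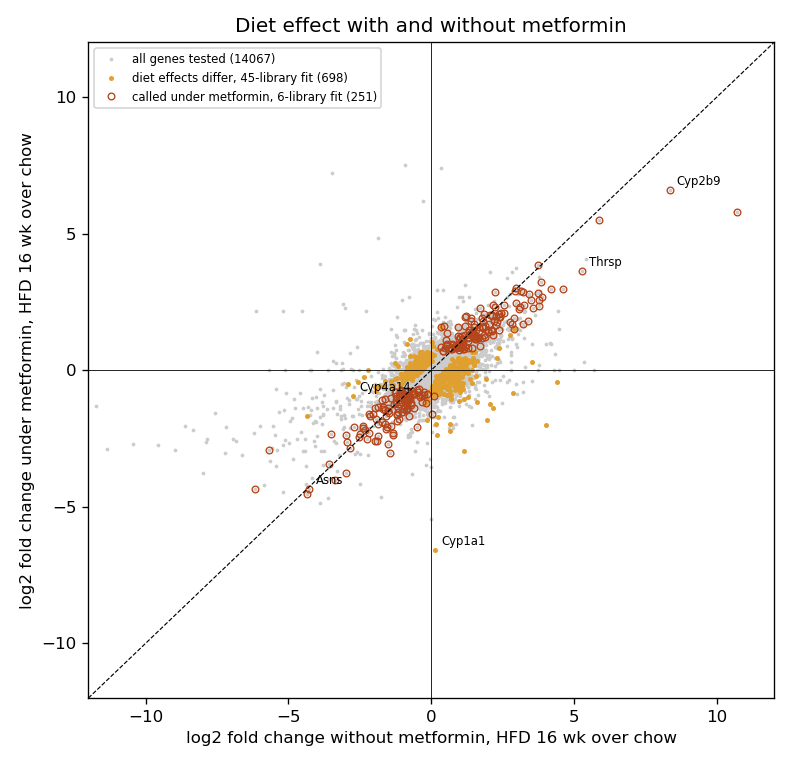
Log2 fold change of 16-week HFD over chow under metformin (vertical axis) against that without metformin (horizontal axis) for all 14067 genes tested, with the 698 genes whose diet effects differed in the fit of all libraries filled and the 251 calls of the 6-library fit under metformin circled. Cyp2b9 and Thrsp lie high and Asns low on both axes, and Cyp4a14 lies further below 0 without metformin (-2.75) than under it (-0.94).

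Upward differences, 3.23% of all genes tested, included 19 of 31 proteasome genes, of which none was lower under metformin and 23 were lower basally. That count was 1 without HFD metformin replicate 1, 9 with trends removed, and 0 to 27 on leaving out 1 of the 12 libraries. Of 40 genes of fatty acid oxidation 11 differed upward, with 4 lower under metformin and 18 basally. Here 4 differed without HFD metformin replicate 1, 6 with trends removed, and 2 to 15 on leaving out 1 of the 12 libraries. The lowest counts of both lists came without chow metformin replicate 1 and without basal chow replicate 2, and for the proteasome also without basal HFD replicate 2. Cyp4a14, an omega-hydroxylase of fatty acids under PPAR alpha, had 5846, 5842 and 4468 CPM in HFD metformin livers, against 7648, 9646 and 13760.00 CPM in chow metformin livers. Basally it had 2107, 2275 and 1460.00 CPM in HFD livers, against 11824, 14156 and 13339 CPM in chow livers. Its diet effect was -0.94 ± 0.25 (adjusted p = 0.00681) under metformin, a call that was lost without chow metformin replicate 3 (adjusted p = 0.0785), and -2.75 ± 0.26 (adjusted p = 8e-09) basally, and the difference was 1.81 ± 0.35 (adjusted p = 0.00587). Plin2, a coat protein of lipid droplets, had 1485, 1581 and 1269.5 CPM in HFD metformin livers, against 944, 787 and 1323 CPM in chow metformin livers, and basally 856, 759.6 and 715 CPM in HFD livers, against 1207, 1472 and 1201 CPM in chow livers. The groups overlapped under metformin, without a call, and lay apart basally, and the difference was 1.24 ± 0.27 (adjusted p = 0.0106). Tmed5, a cargo receptor between ER and Golgi, had 152, 140.1 and 139 CPM in HFD metformin livers, against 190.2, 214 and 260.2 CPM in chow metformin livers, and basally 100, 68.6 and 92.3 CPM in HFD livers, against 322, 359 and 347 CPM in chow livers. Its difference was 1.35 ± 0.20 (adjusted p = 0.00109). Of the unfolded protein response genes, 28 were higher under metformin and 18 basally, 17 in common, and 2 of 35 differed, both upward, or 1 without HFD metformin replicate 1, none with trends removed and 0 to 3 on leaving out 1 of the 12 libraries. Interferon-stimulated genes were called for 29 of 40 under metformin and for 38 basally, 28 of them in both, and none of the 40 differed in the edgeR fit of all libraries or in DESeq2, with 1 upward and 2 downward at an unadjusted p under 0.05. Their median diet effect was 0.87 under metformin and 1.37 basally. The median of their differences was -0.44, or -0.40 without HFD metformin replicate 1 and -0.51 with trends removed. A shift of the list as a set was not tested.

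Mice on 6 weeks of HFD with metformin, whose HFD began at 18 weeks of age, were set against the same 3 chow metformin libraries, so the pair of contrasts shares its controls and only values are given side by side. Cyp2b9 had 341, 247 and 285 CPM at 16 weeks and 80.9, 128 and 19.5 CPM at 6 weeks, with 6.58 ± 0.76 and 4.65 ± 0.70 (adjusted p = 0.00014) over chow metformin. Cyp2b9 was above chow metformin after either time. Isg15 stood at 1.94 ± 0.29 and 1.72 ± 0.29 (adjusted p = 0.000381), and 27 of 40 interferon-stimulated genes were higher after 6 weeks, where 4.43% of all genes were called and 2.27% were higher. Creld2 stood at 2.23 ± 0.39 after 16 weeks and 0.65 ± 0.37 (adjusted p = 0.364) after 6. Asns stood at -4.35 ± 1.02 and -2.89 ± 0.90 (adjusted p = 0.0577). Of the unfolded protein response genes 28 of 35 were higher after 16 weeks, against 11.2% of all genes, and none after 6, against 2.27% of all genes (edgeR, median 0.24, 3 higher at an unadjusted p under 0.05). None of 35 is near the share of all genes at 6 weeks, and the difference between the diets was not tested.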

How the data were processed

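The deposited tables hold raw counts of reads per gene, made by the authors. The submitters' processing notes name TopHat 1.4.0, HTSeq, DESeq2 1.0.18 and the build mm9, and the role of each is not stated there. The groups were read from the sample titles. Genes were filtered with filterByExpr of edgeR 4.0.16 at a minimum count of 10, and TMM gave the library scaling. The model held 1 coefficient per group over all 45 libraries, so groups outside the comparison entered the estimate of the spread. Each of those groups had a lower median SD than HFD metformin livers. Each contrast was tested with the quasi-likelihood F test, with Benjamini-Hochberg adjustment over all genes tested and a false discovery rate of 0.05. The standard error is the size of the log2 fold change over the root of its F statistic. CPM are counts scaled with the TMM factors, and the log2 CPM behind the length correlations had a prior count of 2. limma 3.58.1 (with sample weights), DESeq2 1.42.0, R 4.3.3 and Python 3.11.15 were also used. The edgeR fits were run on simulated counts in which every group had the same spread. Those counts lacked the larger spread of HFD metformin livers, so they cannot show its effect on the calls.

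The comparison, the gene lists and the rule for named genes were chosen with earlier results of these data known. Named were the 12 largest rises and 12 largest falls among genes past the threshold in both fits, without overlap and with a mean of at least 5 CPM, in each list up to 4 called members ranked by adjusted p, a short set of genes named whatever their value, and the 8 largest differences in each direction. Members that a list turns on (Ifit3, Sdf2l1, Dnajb9, Xbp1, Atf6, Fasn, Scd1, Cpt1a and Atf4) were chosen after their values were seen. A few genes that the rule names are not reported here, although counts over lists and over all genes include them. Gene positions come from the mm9 gene models that were deposited. Promoter windows are RefSeq's. Depth was 19.1 to 21.6 M reads per library, and precision is limited by the 3 libraries per group.

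The groups share replicate numbers, but no label gives a number a meaning. Deviations from the group mean correlated at -0.03, -0.14 and -0.10 between same-numbered HFD metformin and chow metformin libraries, so the numbers were not taken as pairs. Alternatives were other libraries in the fit, RLE scaling, no filter, a replicate block, removal of length and GC trends as loess offsets per library, DESeq2, limma with sample weights and leaving out each library.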

Additional observations from a re-analysis of the deposited data

Results flagged for a closer look

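The difference between the diet effect under metformin and the basal diet effect was tested for every gene, and the 8 largest called differences in each direction are given here as log2 values of the edgeR fit of all 45 libraries. The fit of the 12 libraries alone called none of them, with a smallest adjusted p of 0.0982 over all genes and 2079 genes at an unadjusted p under 0.05, while DESeq2 on all libraries called 1126 genes. A positive difference means that HFD stood higher over chow under metformin than without it.

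Cyp4a14 differed by 1.81 ± 0.35 (adjusted p = 0.00587), Tmed5 by 1.35 ± 0.20 (adjusted p = 0.00109) and Plin2 by 1.24 ± 0.27 (adjusted p = 0.0106). Gm15441, which shares exon bases with Txnip on the opposite strand, differed by 2.67 ± 0.81 (adjusted p = 0.0473), with 11.5, 7.36 and 4.21 CPM in HFD metformin livers, against 8.57, 10.2 and 54.1 CPM in chow metformin livers, and 3.41, 2.45 and 1.94 CPM in basal HFD livers, against 50.5, 61.6 and 45.9 CPM in basal chow livers. Gadd45b, of the growth arrest genes, differed by 2.13 ± 0.59 (adjusted p = 0.0348), with 9.60, 14.6 and 5.31 CPM in HFD metformin livers, against 5.28, 15.1 and 19.5 CPM in chow metformin livers, and 2.40, 3.26 and 2.03 CPM in basal HFD livers, against 10.1, 18.8 and 17.1 CPM in basal chow livers. Slc16a1, a carrier of lactate and ketones, differed by 1.27 ± 0.37 (adjusted p = 0.0432), with 87.6, 103 and 50.7 CPM in HFD metformin livers, against 90.9, 93.9 and 174 CPM in chow metformin livers, and 33.5, 32.3 and 34.4 CPM in basal HFD livers, against 109, 136 and 114 CPM in basal chow livers. Gt(ROSA)26Sor, which shares exon bases with Thumpd3, differed by 1.55 ± 0.28 (adjusted p = 0.00404), and Ddit3, uncertain through shared sequence, by 1.25 ± 0.37 (adjusted p = 0.0432).

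Negative differences were those of Lama3, a laminin chain, at -1.56 ± 0.35 (adjusted p = 0.0145), and of C4a, uncertain through its near copy, at -1.57 ± 0.35 (adjusted p = 0.0144). Esr1, the estrogen receptor alpha, differed by -1.57 ± 0.48 (adjusted p = 0.0486), with 2.02, 8.14 and 7.16 CPM in HFD metformin livers, against 10.0, 5.47 and 9.96 CPM in chow metformin livers, and 12.3, 16.5 and 15.1 CPM in basal HFD livers, against 6.74, 6.20 and 8.70 CPM in basal chow livers. Zbtb20, a transcription factor of hepatocytes, differed by -1.58 ± 0.33 (adjusted p = 0.0083), with 2.31, 5.05 and 6.21 CPM in HFD metformin livers, against 5.68, 5.42 and 7.64 CPM in chow metformin livers, and 10.5, 12.5 and 15.9 CPM in basal HFD livers, against 5.47, 6.73 and 5.68 CPM in basal chow livers. Kcnq1ot1, which shares exon bases with Kcnq1, differed by -1.64 ± 0.31 (adjusted p = 0.00567) and Arhgef37 by -1.67 ± 0.42 (adjusted p = 0.0227). Cyp1a2 differed by -2.90 ± 0.76 (adjusted p = 0.027) and Cyp1a1 by -6.71 ± 1.57 (adjusted p = 0.0182), both with chow metformin replicate 2 far above every other library of these groups. Without that library the values were -0.30 (adjusted p = 0.73) for Cyp1a2 and -0.05 (adjusted p = 0.971) for Cyp1a1.

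The differences of Cyp4a14, Tmed5, Plin2, Gt(ROSA)26Sor, Zbtb20 and Kcnq1ot1 stayed called without any 1 of the 12 libraries. With length and GC trends removed Kcnq1ot1 had an adjusted p of 0.101 and Lama3 of 0.0966. Lama3 lost its call without chow metformin replicate 2 (adjusted p = 0.0552) or basal HFD replicate 2 (adjusted p = 0.074), and C4a without chow metformin replicate 1 (adjusted p = 0.0504). The difference of Gm15441 was 4.05 (adjusted p = 0.00328) without chow metformin replicate 3. Gm15441, Gadd45b and Ddit3 each lost theirs in 8 of the 12 ways of leaving out 1 library, Slc16a1 in 10, Esr1 in 9 and Arhgef37 in 6.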

How the results depend on the processing

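Of 2871 genes called for the diet effect under metformin, counts stayed within 1.5-fold with RLE scaling, no filter, trends removed and DESeq2. With fewer libraries in the fit they were 251 (6 libraries), 285 (the same with its own filter), 270 (the same with RLE scaling), 504 (the same with trends removed), 603 (9 metformin libraries) and 1568 (limma with sample weights, 6 libraries). These fits hold fewer samples. In limma the sample weight was 0.156 for HFD metformin replicate 1, against 1.05 to 2.42 for the other libraries. Why the counts were lower was not tested. With trends removed and without HFD metformin replicate 1 the count was 1906. Leaving out 1 library gave 1635 to 3737 in the fit of all libraries and 43, 69 and 61 (chow metformin replicates 1 to 3) and 993, 159 and 64 (HFD metformin replicates 1 to 3) in the fit of 6. For the difference of the diet effects (698) the counts were 276 with trends removed, 1126 with DESeq2, 0 with 12 libraries, 23 with those less HFD metformin replicate 1, 85 with trends removed and without that library, and 92 to 1418 on leaving out 1 library. The cause of these moves was not tested. Cyp1a1 changed sign without chow metformin replicate 2, to 0.0783 in the fit of all libraries and 0.0659 in that of 6 (log2), and reached -7.15 without chow metformin replicate 3. For the fit of 6 libraries its own filter, the block and RLE scaling were chosen after seeing the data, as were the fits without HFD metformin replicate 1 that also removed trends or held 12 libraries.

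With the replicate block, which the correlations did not support as a pairing, the fit of all libraries called 3021 genes (2505 with trends removed) and the fit of 6 called 154. For the difference the block gave 925, or 299 with trends removed.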

Other observations

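Of 30 extracellular matrix genes, edgeR called none higher and 1 lower in HFD metformin livers over chow metformin livers, against 11.2% and 9.25% of all genes. At an unadjusted p under 0.05, 2 were higher and 1 lower. DESeq2 called 1 and 1, and limma with sample weights 5 and 1. The 6-library fit called 1 and 1, or 3 and 1 without HFD metformin replicate 1. In 8 of the 30 all HFD metformin livers were above all chow metformin livers and in 4 below, against 14.4% and 13.4% of all genes. In basal HFD livers over basal chow livers 16 were higher and 1 lower, against 16% and 16.3% of all genes. None of the 30 differed between these diet effects in edgeR or DESeq2, and 6 differed downward at an unadjusted p under 0.05. Col1a1, the main chain of type I collagen, had 3.35, 3.19 and 5.41 CPM in HFD metformin livers, against 2.09, 2.25 and 2.22 CPM in chow metformin livers, and basally 4.43, 8.51 and 32.7 CPM in HFD livers, against 3.42, 1.6 and 1.91 CPM in chow livers. Col3a1, of type III collagen, had 18.4, 21.5 and 28.2 CPM in HFD metformin livers, against 15.0, 13.2 and 12.6 CPM in chow metformin livers, and basally 16.4, 27.2 and 88.1 CPM in HFD livers, against 14.8, 11.2 and 9.71 CPM in chow livers. These 2 genes were chosen after their values were seen.

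Of 30 genes of ribosome biogenesis, 1 was higher and 3 lower under metformin, against 1 higher and 15 lower basally, and 6 differed upward, or 3 without HFD metformin replicate 1 and 2 to 10 on leaving out 1 of the 12 libraries. The leading member under metformin was Rrp1b, a nucleolar protein, with 3.18, 3.71 and 3.41 CPM in HFD metformin livers, against 5.73, 5.18 and 6.31 CPM in chow metformin livers. Its groups did not overlap, and its log2 fold change was -0.74 ± 0.15 (adjusted p = 0.000903). Of 30 genes of the NRF2 program and oxidative stress, 2 were higher and 3 lower under metformin, against 11.2% and 9.25% of all genes, and 1 and 4 without HFD metformin replicate 1. Gpx1, the main glutathione peroxidase of the cytosol, had 3096, 2068 and 1933 CPM in HFD metformin livers, against 1337, 1651 and 1584 CPM in chow metformin livers and rose by 0.63 ± 0.14 (adjusted p = 0.00173). Gsr, which restores glutathione, had 78.3, 66.9 and 62.7 CPM in HFD metformin livers, against 71.8, 98.2 and 105 CPM in chow metformin livers, with a log2 fold change of -0.40 ± 0.10 (adjusted p = 0.00422), and the call was lost without chow metformin replicate 3 (adjusted p = 0.0566).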
